A study of Homo sapiens with 6 samples.

Results

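Breast cancer stem cell marker genes are the genes whose products have been used to pick out tumour-initiating or stem-like cells in breast cancer. Those followed here, taken by name, were CD44, CD24, ALDH1A1, ALDH1A3, PROM1, EPCAM, PROCR, POU5F1, NANOG and BMI1. They make up 10 of the 58735 genes in the count table, and they were chosen by name, by a rule that used no measured value, though earlier results of these data were known when it was made. They were read by RNA-Seq in BT549 cells, an established basal-like and mesenchymal breast cancer cell line, in 6 libraries. The DMSO group held 3 libraries of cells given the solvent for 48 h, at a dose of 0 nM of the compound. The AS1842856 group held 3 libraries of cells given AS1842856 at 200 nM for 48 h, as the labels state it. AS1842856 is a small-molecule ligand of the transcription factor FOXO1 and blocks its binding to DNA. The paper's text gives a higher dose than the labels, and the dose was not resolved here. Both groups came from the same unmodified cell line, and 1 compound, 1 dose and 1 time limit what the comparison covers.

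Stem-like breast cancer cells are usually described by surface proteins and by enzyme activity. CD44 binds hyaluronan in the matrix, CD24 is a small glycosylated protein anchored to the membrane, and cells with much CD44 and little CD24 protein are the classic stem-like fraction. ALDH1A1 and ALDH1A3 oxidise retinal to retinoic acid and give much of the aldehyde dehydrogenase activity used to sort such cells. EPCAM and PROM1 (CD133) are epithelial surface proteins, PROCR is the endothelial protein C receptor, POU5F1 (OCT4) and NANOG are transcription factors of pluripotent cells, and BMI1 is a subunit of Polycomb repressive complex 1. RNA levels were measured here, and neither surface protein nor enzyme activity was. In bulk RNA, fewer cells that express a gene and less RNA per cell cannot be told apart.

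Upstream sequences are shown for the 4 markers that differed between the groups and for ALDH1A1, which had no counts, to show how the promoters of these genes differ. Each run is the 250 bases before the RefSeq start site (GRCh38.p14), read 5′ to 3′ on the strand of the gene, with CG dinucleotides in capitals. The positions are chr11:35138921-35139170 (plus strand) for CD44, chr6:106975628-106975877 (minus strand) for the first of 3 starts of CD24, chr15:100879581-100879830 (plus strand) for ALDH1A3, chr20:35171822-35172071 (plus strand) for PROCR and chr9:72953054-72953303 (minus strand) for ALDH1A1.
CD44: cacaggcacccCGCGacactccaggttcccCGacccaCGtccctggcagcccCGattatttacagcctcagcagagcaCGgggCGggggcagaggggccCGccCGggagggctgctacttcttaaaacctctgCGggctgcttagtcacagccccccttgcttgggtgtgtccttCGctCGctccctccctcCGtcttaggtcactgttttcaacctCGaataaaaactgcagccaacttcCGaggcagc
CD24: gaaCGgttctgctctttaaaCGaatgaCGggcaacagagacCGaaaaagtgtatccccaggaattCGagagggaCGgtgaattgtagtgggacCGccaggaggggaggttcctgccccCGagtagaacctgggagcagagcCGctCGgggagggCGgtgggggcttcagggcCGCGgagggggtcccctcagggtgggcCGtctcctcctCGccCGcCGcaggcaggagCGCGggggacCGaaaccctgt
ALDH1A3: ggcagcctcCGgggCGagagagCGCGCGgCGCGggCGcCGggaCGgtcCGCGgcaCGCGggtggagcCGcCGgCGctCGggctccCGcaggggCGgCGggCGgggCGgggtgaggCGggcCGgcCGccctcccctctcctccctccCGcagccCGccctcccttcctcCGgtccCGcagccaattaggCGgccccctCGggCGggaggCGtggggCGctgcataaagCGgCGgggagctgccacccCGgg
PROCR: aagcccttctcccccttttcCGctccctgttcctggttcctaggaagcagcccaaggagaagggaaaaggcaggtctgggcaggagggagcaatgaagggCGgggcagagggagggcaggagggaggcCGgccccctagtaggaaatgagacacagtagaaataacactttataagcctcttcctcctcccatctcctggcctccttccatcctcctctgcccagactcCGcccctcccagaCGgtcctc
ALDH1A1: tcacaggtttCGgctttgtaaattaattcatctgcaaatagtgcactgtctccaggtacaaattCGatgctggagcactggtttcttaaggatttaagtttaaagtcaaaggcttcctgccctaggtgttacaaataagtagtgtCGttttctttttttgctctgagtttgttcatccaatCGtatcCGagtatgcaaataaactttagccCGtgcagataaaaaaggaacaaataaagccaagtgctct

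The promoters differed widely in CG content. The ALDH1A3 window, counted over 300 bases that run from 250 before to 50 after the start, held 46 CG dinucleotides, and 97.1% of all 35116 RefSeq windows held fewer. The ALDH1A1 window held 7, with 36.8% of windows below it, and the median window held 14. CD44 had 18, CD24 had 25, 36 and 21 at its 3 starts, PROCR had 9, NANOG had 5 and BMI1 had 36 and 65. Windows were given for 8 of the 10 genes, 14 windows in all, and EPCAM and POU5F1 had no entry. The FOXO motif GTAAACA, searched on both strands, was found in 3.42% of all windows and in 0 of the 14 windows of the markers. The TCF/LEF motif CTTTGAT, searched the same way, was found in 2.62% of all windows and in 1 of the 14, the fourth start of PROM1. Neither motif contains the other, and a missing match says only that these letters were not in the window.

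The libraries held between 15289500 and 22981832 counts, and 14338 genes had enough counts to be tested. Within each group, every pair of libraries differed beyond sampling noise (chi-square over its degrees of freedom, 2.37 to 3.28). The mesenchymal markers VIM (255 FPKM in DMSO and 201 in AS1842856), FN1 (25.8 and 56.3 FPKM), CAV1 (160 and 106 FPKM), EGFR and CDH2 were well expressed in both groups, while KRT5, KRT14, CDH1 and ESR1 had at most 1 count in any library, so RNA of these keratins, E-cadherin and the estrogen receptor was not detectable beyond 1 count at this depth. FPKM is the deposited value, a count scaled by the length of the gene and the depth of the library. Of the 9 genes of the mesenchymal and basal-like list 7 were tested, 2 were higher (FN1 and the basal keratin KRT17, with 1, 2 and 5 counts in DMSO and 18, 30 and 22 in AS1842856) and 5 lower, and the summed level was 2723 to 2834 CPM (counts scaled by TMM library size) in DMSO and 2698 to 2729 CPM in AS1842856. KRT17 reached the level of the filter on low counts in AS1842856 only, and TP63, among the lower genes, in DMSO only. The directions of these genes are not independent of the filter. The luminal list held 6 tested genes of 9, of which 2 were higher and 4 lower, and its summed level was 173 to 179 CPM in DMSO and 102 to 107 CPM in AS1842856. Within it KRT8 fell from 40.9 to 4.15 CPM and KRT18 fell from 33.9 to 3.45 CPM, log2 fold changes of -3.31 (SE 0.10) and -3.30 (SE 0.11). The 2 higher genes of that list were KRT19, which rose to 9.40 CPM (log2 fold change 1.61, SE 0.16), and GATA3, which rose from 50.9 to 61.7 CPM (0.28, SE 0.06). In the white blood and endothelial cell list 5 of 7 genes were at 3 counts or fewer in every library, CD3E and CDH5 had no counts, and the summed level was 1.08 to 2.02 CPM in DMSO and 3.64 to 4.65 CPM in AS1842856. Its 1 tested gene, the leukocyte antigen PTPRC, rose from 1.15 ± 0.433 to 3.16 ± 0.480 CPM (log2 fold change 1.48, SE 0.27, adjusted p of 4.99e-07 by edgeR). For comparison, 56.0% of all tested genes were called at an adjusted p of 0.05 by edgeR, 27.6% higher and 28.4% lower. The part of these list differences in the results on the markers was not tested.

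The markers fell into a strongly expressed set and a set at or near 0. CD24 and CD44 had the highest levels per length, followed by ALDH1A3, BMI1 and PROCR, while POU5F1 and EPCAM were below 1 FPKM in every library. PROM1 had a count in 2 of 6 libraries, and ALDH1A1 and NANOG had none in any. With AS1842856, CD24 and PROCR rose and CD44 and ALDH1A3 fell, and BMI1 and POU5F1 did not pass the test. Thus 4 of the 6 markers that could be tested were called at an adjusted p of 0.05, 2 higher and 2 lower. Over all tested genes 56.0% were called, 27.6% higher and 28.4% lower, so the share of markers called was near that of genes in general. The groups did not overlap for 4 of the 6 tested markers, and did not overlap for 59.9% of all tested genes. The remaining 4 markers had too few counts for the test.

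**Figure D1:**
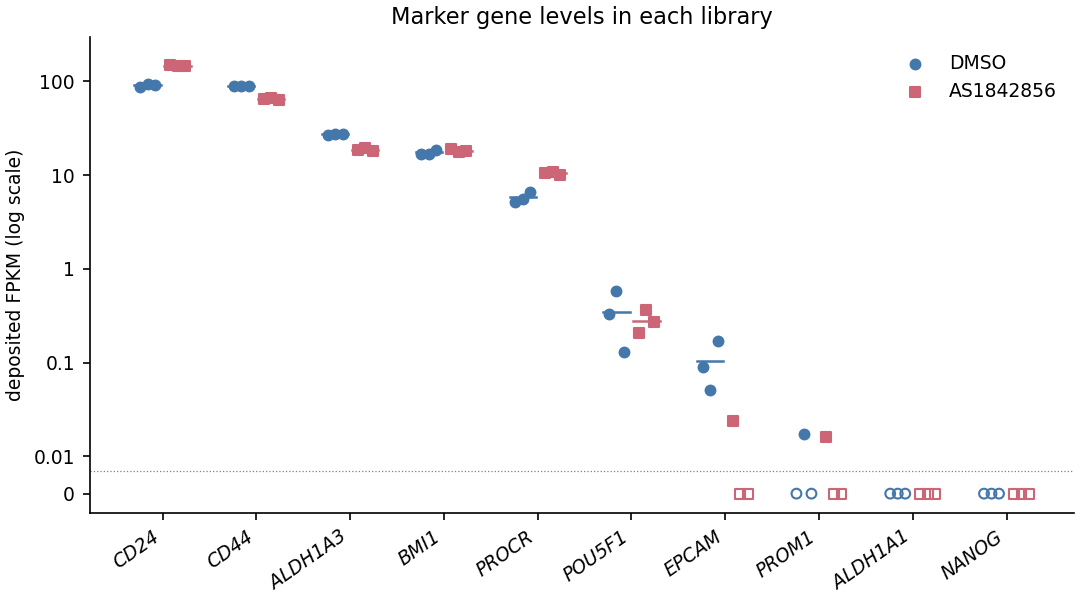
Deposited FPKM (log axis, with 0 drawn below the dotted line) of the 10 marker genes in the 3 DMSO libraries (circles) and the 3 AS1842856 libraries (squares), with the mean as a line where all 3 values were above 0. Open symbols are libraries with a value of 0, and ALDH1A1 and NANOG, which had no counts, were not in the FPKM tables. CD24 and PROCR sat higher and CD44 and ALDH1A3 lower in all 3 AS1842856 libraries, while BMI1 and POU5F1 overlapped.

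CD44 (ENSG00000026508, chr11:35138870-35232402, plus strand, GRCh38) encodes the hyaluronan receptor and was among the most abundant genes of the cells. Its FPKM was 89.1, 89.7 and 88.7 in DMSO libraries A, B and C, and 64.6, 66.7 and 64.0 in AS1842856 libraries A, B and C. All 3 treated libraries were below all 3 controls. The counts behind these values were 19674, 13888 and 16576 in DMSO and 10820, 15333 and 11503 in AS1842856. In CPM the mean was 897 ± 6.20 (SD, n = 3) in DMSO and 655 ± 14.2 (SD, n = 3) in AS1842856. The log2 fold change was -0.45 (SE 0.03, 95% interval -0.52 to -0.39), a level 0.730 times that of DMSO, with an adjusted p of 6.18e-31 by edgeR's quasi-likelihood test. Among all tested genes, 70.0% had a smaller change in size.

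Gene counts do not tell the forms of CD44 apart. The gene makes a standard form and variant forms by alternative splicing, and GENCODE listed 26 protein-coding transcripts of 352 to 5732 bases. The deposited FPKM used the joined exons of all of them, 10004 bases, so the level of CD44 per length depends on that choice, while its change between groups does not. ESRP1 and ESRP2, epithelial splicing factors that favour the variant forms of CD44, had at most 6 counts in any library and were not tested, and they were picked out after their values were seen. The antisense gene CD44-AS1 shared 84 exon bases with CD44 and held 3 to 8 counts per library, 0.0342% as many as CD44.

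CD24 (ENSG00000272398, chr6:106969831-106975627, minus strand) moved the other way. Its FPKM was 86.7, 93.8 and 92.6 in DMSO libraries A, B and C and 150.5, 146.8 and 145.7 in AS1842856 libraries A, B and C. The lowest treated library was far above the highest control. Its counts were 5928, 4499 and 5359 in DMSO and 7805, 10446 and 8106 in AS1842856. The mean rose from 284 ± 12.1 CPM (SD, n = 3) to 460.1 ± 7.26 CPM (SD, n = 3). The log2 fold change was 0.70 (SE 0.04, 95% interval 0.63 to 0.77), or 1.62-fold, with an adjusted p of 5.98e-51 by edgeR. Of the 3 annotated pseudogenes of CD24, 1 had counts, at most 8 in a library, so reads assigned to copies were few beside those of the gene.

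The levels of the pair were set against each other in each library, since high CD44 with low CD24 is the usual reading. The CD44 to CD24 ratio of FPKM was 1.03, 0.956 and 0.958 in DMSO libraries A, B and C. It was 0.429, 0.454 and 0.439 in AS1842856 libraries A, B and C. The genes thus stood at about the same level per length in control cells, where their FPKM overlapped, and CD24 was 2.27-fold above CD44 in treated cells, with no overlap. The geometric mean of the ratio was 0.980 in DMSO and 0.441 in AS1842856, a log2 difference of -1.15, or 2.22-fold lower. A two-sided exact permutation test gave p = 0.1 (n = 3 and 3), the smallest p that 3 against 3 libraries allow. The absolute ratio carries the length choice described for CD44, and the ratio of RNA in a bulk library does not count cells with high CD44 and low CD24 protein.

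**Figure D2:**
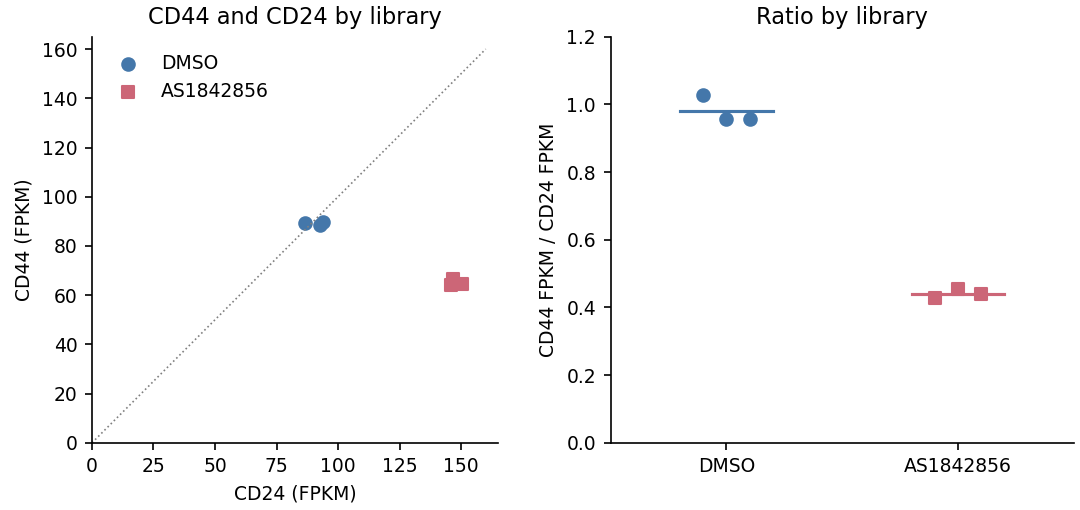
Left, CD44 against CD24 (both in deposited FPKM) for each library, with equal levels on the dotted line. Right, the CD44 to CD24 ratio of FPKM in each library, with the geometric mean of the group as a line: the DMSO libraries lay between 0.956 and 1.03 and the AS1842856 libraries between 0.429 and 0.454.

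PROCR (ENSG00000101000, chr20:35172073-35216240, plus strand) encodes the receptor that holds protein C for activation and has also been used to mark mammary stem cells. Its FPKM was 5.21, 5.64 and 6.56 in DMSO libraries A, B and C and 10.5, 10.8 and 10.1 in AS1842856 libraries A, B and C. The groups did not overlap, and the controls were more spread than the treated libraries. From 195, 148 and 208 counts in DMSO and 297, 420 and 309 in AS1842856, the means were 9.90 ± 1.18 CPM and 17.8 ± 0.534 CPM (SD, n = 3 each). The log2 fold change was 0.85 (SE 0.11, 95% interval 0.65 to 1.06), or 1.81-fold, with an adjusted p of 1.93e-13 by edgeR. This was the largest change in size among the 6 tested markers, and 86.6% of all tested genes had a smaller one. The antisense gene AL356652.1 overlapped 218 exon bases of PROCR and had 0 counts. MMP24OS overlaps the span of PROCR on the opposite strand with 0 shared exon bases, and it held 489 to 799 counts per library and rose by 0.27 on the log2 scale (adjusted p of 0.00041 by edgeR).

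EPCAM and PROM1, the epithelial surface markers, were at the edge of detection. EPCAM (ENSG00000119888, chr2:47345158-47387601, plus strand) had 5, 2 and 8 counts in DMSO libraries A, B and C and 1, 0 and 0 in AS1842856 libraries A, B and C. The 15 control counts against 1 treated count gave a ratio of 15.4, with an exact counting interval of 2.37 to 649 that covers counting error only. EPCAM was removed by the filter, and without any filter edgeR gave an adjusted p of 0.0328 while DESeq2 gave 0.0562. PROM1 (ENSG00000007062, chr4:15963076-16084378, minus strand) had 2 counts in DMSO library B, 2 in AS1842856 library A and 0 elsewhere. A level of 3 counts, taken as the limit that a count of 0 allows, was 0.131 to 0.196 CPM in these libraries.

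The aldehyde dehydrogenases used as stem cell markers were represented by ALDH1A3 alone. ALDH1A3 (ENSG00000184254, chr15:100877714-100916626, plus strand) had FPKM values of 26.7, 27.7 and 27.5 in DMSO libraries A, B and C and 18.6, 19.4 and 18.0 in AS1842856 libraries A, B and C. All treated libraries were below all controls. Its counts were 3398, 2476 and 2969 in DMSO and 1799, 2569 and 1865 in AS1842856, and the mean fell from 159 ± 3.39 CPM (SD, n = 3) to 108 ± 3.98 CPM (SD, n = 3). The log2 fold change was -0.55 (SE 0.04, 95% interval -0.63 to -0.47), a level 0.684 times that of DMSO, with an adjusted p of 2.38e-29 by edgeR. The antisense gene AC015712.2 shared 1585 bases (27.5%) of the exons of ALDH1A3, held 4.80% as many counts and had a log2 fold change of -0.56 (adjusted p of 0.00043 by edgeR). Whether counting used strand is not given in the sources used here, so reads in the shared bases cannot be told apart. ALDH1A1 (ENSG00000165092, chr9:72900662-73080442, minus strand) had 0 counts in all 6 libraries, so no ratio of ALDH1A3 to ALDH1A1 was computed.

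Of the nuclear factors, BMI1 alone was well expressed. BMI1 (ENSG00000168283, chr10:22321211-22331484, plus strand) had FPKM values of 16.8, 17.0 and 18.8 in DMSO libraries A, B and C and 19.2, 17.7 and 18.1 in AS1842856 libraries A, B and C. The groups overlapped. From 1592, 1124 and 1501 counts in DMSO and 1380, 1739 and 1391 in AS1842856, the means were 75.5 ± 4.59 CPM and 79.0 ± 3.43 CPM (SD, n = 3 each). The log2 fold change was 0.06 (SE 0.05, adjusted p of 0.281 by edgeR), with a 95% interval of -0.03 to 0.16. The read-through gene COMMD3-BMI1 shares 1000 exon bases (23.3%) with BMI1 on the same strand and had 0 counts. How reads in shared bases were counted is not given in the sources used here. The 0 therefore does not show that read-through RNA was absent.

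POU5F1 (ENSG00000204531, chr6:31164337-31180731, minus strand) had 21, 26 and 7 counts in DMSO libraries A, B and C and 10, 24 and 14 in AS1842856 libraries A, B and C. The groups overlapped, at 1.01 ± 0.660 CPM and 0.812 ± 0.227 CPM (SD, n = 3 each). The log2 fold change of -0.24 had an SE of 0.39 and a 95% interval of -1.01 to 0.53 (adjusted p of 0.628 by edgeR), and it turned to 0.27 when DMSO library B was left out. POU5F1 shares 248 exon bases (8.56%) with TCF19 on the opposite strand, which held 2534 to 4379 counts per library and itself fell by 0.35 on the log2 scale (adjusted p of 6.12e-16 by edgeR). The count of POU5F1 is uncertain for this reason. Of its 7 annotated copies, 3 had a count, with at most 3 in a library. NANOG (ENSG00000111704, chr12:7787794-7799141, plus strand) had 0 counts in all 6 libraries, and so did its 11 annotated copies.

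**Figure D3:**
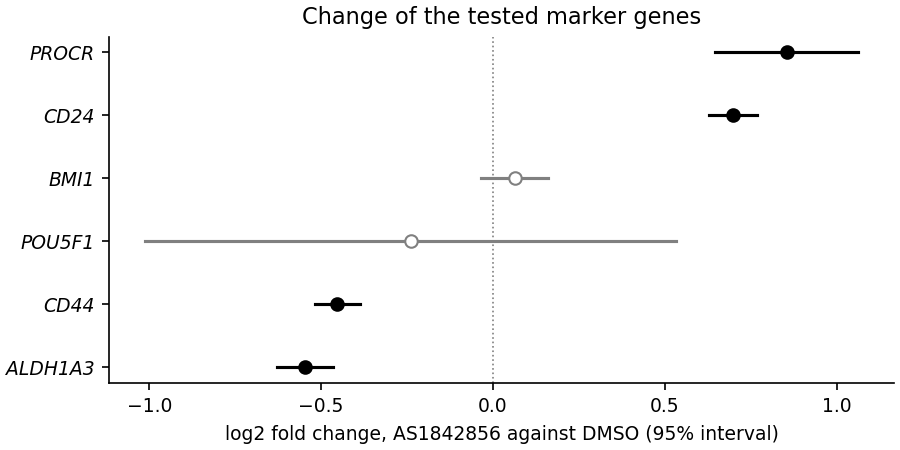
Log2 fold change, AS1842856 against DMSO, of the 6 marker genes that could be tested, with 95% intervals, filled where the adjusted p was under 0.05. PROCR (0.85) and CD24 (0.70) lay above 0, CD44 (-0.45) and ALDH1A3 (-0.55) lay below 0, and the intervals of BMI1 and POU5F1 covered 0.

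The order of the markers by mean FPKM was the same in both groups, while the gaps between neighbours changed. Single libraries departed from it. CD44 was above CD24 in DMSO library A, EPCAM was above POU5F1 in DMSO library C, and BMI1 was above ALDH1A3 in AS1842856 libraries A and C. In DMSO libraries the order by mean was CD24 (91.1 ± 3.79), CD44 (89.2 ± 0.509), ALDH1A3 (27.3 ± 0.549), BMI1 (17.5 ± 1.07), PROCR (5.80 ± 0.691), POU5F1 (0.346 ± 0.226) and EPCAM (0.104 ± 0.0605), as mean and SD of 3 libraries. CD24 and CD44 overlapped there, and so did POU5F1 and EPCAM, while the other neighbours did not. In AS1842856 libraries the values were CD24 (147.7 ± 2.49), CD44 (65.1 ± 1.43), ALDH1A3 (18.7 ± 0.695), BMI1 (18.3 ± 0.811), PROCR (10.5 ± 0.319) and POU5F1 (0.279 ± 0.0777). ALDH1A3 and BMI1, which stood 1.56-fold apart in controls, overlapped in treated cells. CD24 was above 98.4% of the 25015 genes with an FPKM value in DMSO libraries and above 99.1% in AS1842856 libraries, and PROCR went from above 74.5% to above 82.5%.

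The genes whose pattern over the 6 libraries was nearest to that of CD24, the marker with the highest mean FPKM, were MRPS30, RNF182 and RUNX1. MRPS30 is a mitochondrial ribosomal protein, RNF182 a ubiquitin ligase and RUNX1 a transcription factor. Their root-mean-square distances from CD24, between log2 CPM centred on each gene's mean, were 0.0239, 0.0264 and 0.0269. Their log2 fold changes were 0.71, 0.67 and 0.70, beside 0.70 for CD24. Genes with a like fold change and little spread between replicates have a small distance by this measure. Shared regulation was not tested.

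Genes that work with the markers were counted next, by pathway. The lists were written from general knowledge, and each is described by counts and by its median beside that of all tested genes, which was 0.003 on the log2 scale. Calls of log2 fold changes of 1 or more in size made up 10.6% of all tested genes. Calls of any size made up 56.0%, with 27.6% higher and 28.4% lower. Of the tested genes of each list, from 73.7% (Polycomb repressive complex 1) to 100% (the 2 epithelial partners) were called, and no set test was run.

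The aldehyde dehydrogenase family oxidises aldehydes from many pathways. Of its 19 genes 13 were tested, 2 were higher, 8 lower and 3 not called, with a median log2 fold change of -0.41, and ALDH1A3 is among the lower ones. ALDH2, the mitochondrial enzyme that clears acetaldehyde, rose from 9.47 ± 0.646 to 19.7 ± 0.477 CPM (log2 fold change 1.05, SE 0.10). ALDH5A1, which oxidises succinate semialdehyde in the breakdown of GABA, fell from 2.93 ± 0.454 to 0.674 ± 0.182 CPM (-2.09, SE 0.31). ALDH2 and ALDH5A1 were the members of the family with a change of 1 or more in size. ALDH5A1 reached the level of the filter in every DMSO library but not in AS1842856 library A (8 counts). The direction of ALDH5A1 is therefore not independent of the filter. Means here and in the following lists are CPM with the SD of 3 libraries, and each gene given there with an SD and an SE had an adjusted p by edgeR under 0.05 and no overlap between groups.

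Retinoic acid, the product of ALDH1A enzymes, acts through binding proteins, receptors and the enzymes that break it down. Of 22 such genes 13 were tested, 2 were higher, 8 lower and 3 not called, with a median of -0.26. STRA6, a membrane receptor for retinol uptake, rose from 33.2 ± 1.68 to 73.4 ± 2.18 CPM (log2 fold change 1.14, SE 0.06). CRABP2, which carries retinoic acid to its nuclear receptors, rose from 0.541 ± 0.0967 to 1.98 ± 0.0558 CPM (1.87, SE 0.36). Its counts were 10, 8 and 12 in DMSO and 32, 46 and 36 in AS1842856. CRABP2 reached the level of the filter in every AS1842856 library but not in every DMSO library. Its direction is therefore not independent of the filter. CYP26B1, which degrades retinoic acid, fell from 1.15 ± 0.363 to 0.470 ± 0.189 CPM (-1.24, SE 0.42). It had 16, 21 and 25 counts in DMSO and 5, 10 and 12 in AS1842856. CYP26B1 reached the level of the filter in every DMSO library but not in every AS1842856 library. The direction of CYP26B1 is thus not independent of the filter either.

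The pluripotency network was mostly at or near 0, as NANOG was. Of 16 further genes 6 had no counts at all, among them SOX2, and 4 were tested, with 1 higher, 2 lower and a median of -0.55. TBX3, a T-box repressor also used in mammary development, rose from 136 ± 6.18 to 324 ± 2.67 CPM (log2 fold change 1.26, SE 0.04). The de novo DNA methyltransferase DNMT3B fell from 17.8 ± 1.31 to 5.11 ± 0.420 CPM (-1.81, SE 0.12), and the Krüppel-like factor KLF4 fell from 22.5 ± 0.812 to 9.25 ± 1.91 CPM (-1.29, SE 0.10).

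All 19 genes listed for Polycomb repressive complex 1, in which BMI1 sits, passed the filter. Of these 8 were higher, 6 lower and 5 not called, with a median of 0.04. CDKN2A, counted among the 5, is not a subunit of the complex. CBX7, a chromodomain subunit that reads methylated histone H3, was the 1 gene with a change of 1 or more in size, and it fell from 11.1 ± 1.01 to 4.51 ± 0.248 CPM (log2 fold change -1.31, SE 0.14). CDKN2A, a classic target of BMI1, was picked out after its value was seen and stood at 665 CPM in DMSO and 680 CPM in AS1842856 (adjusted p of 0.478 by edgeR).

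Genes that make the ligand of CD44, anchor it or cut it were split. Of 16 genes 12 were tested, 3 were higher, 6 lower and 3 not called, with a median of -0.07. Of the hyaluronan synthases HAS3 and HAS2 rose, HAS3 from 107 ± 3.39 to 347 ± 6.16 CPM (log2 fold change 1.70, SE 0.04) and HAS2 from 7.80 ± 0.329 to 23.2 ± 0.983 CPM (1.56, SE 0.10), while HAS1 had 1 count over all libraries and was not tested. MMP14, a membrane protease that sheds CD44 from the surface, rose from 720 ± 11.2 to 2158 ± 54.8 CPM (1.58, SE 0.03). These were all 3 of the higher genes, while CD44 itself fell.

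The epithelial partners of EPCAM, CD24 and PROM1 were scarce in these cells. Of 14 genes 2 passed the filter, and both were lower, with a median of -1.32. CLDN7 had 26, 28 and 16 counts in DMSO libraries A, B and C and 7, 11 and 8 in AS1842856 libraries A, B and C. Scaled to library size, CLDN7 reached the level of the filter in DMSO only, so its direction is not independent of the filter. The tight junction protein CLDN7, a partner of EPCAM, fell from 1.29 ± 0.490 to 0.450 ± 0.0309 CPM (log2 fold change -1.47, SE 0.42), and the mucin MUC1 fell from 8.68 ± 1.86 to 3.93 ± 0.290 CPM (-1.16, SE 0.15). Genes removed by the filter also went the other way: the epithelial transcription factor GRHL2 had 0, 1 and 0 counts in DMSO libraries A, B and C and 8, 7 and 16 in AS1842856 libraries A, B and C, and OVOL1 had 0 in each DMSO library and 2, 9 and 4 in AS1842856. Both were picked out after their values were seen, and without the filter 5 genes of the list were called.

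The list for the protein C pathway, to which PROCR belongs, also held tissue factor, its inhibitor, and GAS6 with its receptors. Changes larger than that of PROCR were among these added genes and the protease-activated receptors. PROC, protein C itself, was not tested, and PROS1 was not called (log2 fold change 0.22, adjusted p of 0.060 by edgeR). Both were looked up after the values were seen. Of 14 genes 9 were tested, 3 were higher, 4 lower and 2 not called, with a median of -0.48. The protease-activated receptors F2RL1 (PAR2) and F2R (PAR1) rose, F2RL1 from 1.48 ± 0.139 to 17.7 ± 1.81 CPM (log2 fold change 3.59, SE 0.16) and F2R, through which PROCR-bound protein C signals, from 9.19 ± 0.871 to 23.5 ± 1.39 CPM (1.36, SE 0.10). Tissue factor F3, which starts coagulation, fell from 6.18 ± 0.154 to 2.29 ± 0.168 CPM (-1.42, SE 0.19), and its inhibitor TFPI fell from 38.4 ± 0.736 to 15.3 ± 1.37 CPM (-1.33, SE 0.08). The vitamin K-dependent ligand GAS6 fell from 283 ± 11.0 to 113 ± 2.54 CPM (-1.32, SE 0.04), and its receptor AXL fell from 423 ± 6.02 to 135 ± 6.13 CPM (-1.65, SE 0.04). THBD, which activates protein C together with PROCR and thrombin, had 0 counts in all libraries and was looked up after the values were seen.

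Other proteins used to mark stem-like breast cancer cells were counted in the same way. Of 26 genes 18 were tested, 2 were higher, 12 lower and 4 not called, with a median of -0.50. The integrin subunit ITGB3 fell from 3.64 ± 0.164 to 0.693 ± 0.0455 CPM (log2 fold change -2.37, SE 0.29), and the TNF family ligand CD70 fell from 130 ± 8.10 to 41.0 ± 2.72 CPM (-1.66, SE 0.05). The tetraspanin CD9 fell from 40.5 ± 2.37 to 17.9 ± 1.17 CPM (-1.17, SE 0.08). ST8SIA1, the GD3 synthase behind the ganglioside markers of such cells, had 36, 12 and 24 counts in DMSO libraries A, B and C and 3 in each AS1842856 library, with a fitted log2 fold change of -2.96 (SE 0.52) that rests on counts at the limit of 3. ST8SIA1 reached the level of the filter in DMSO only, so its direction is not independent of the filter.

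**Figure D4:**
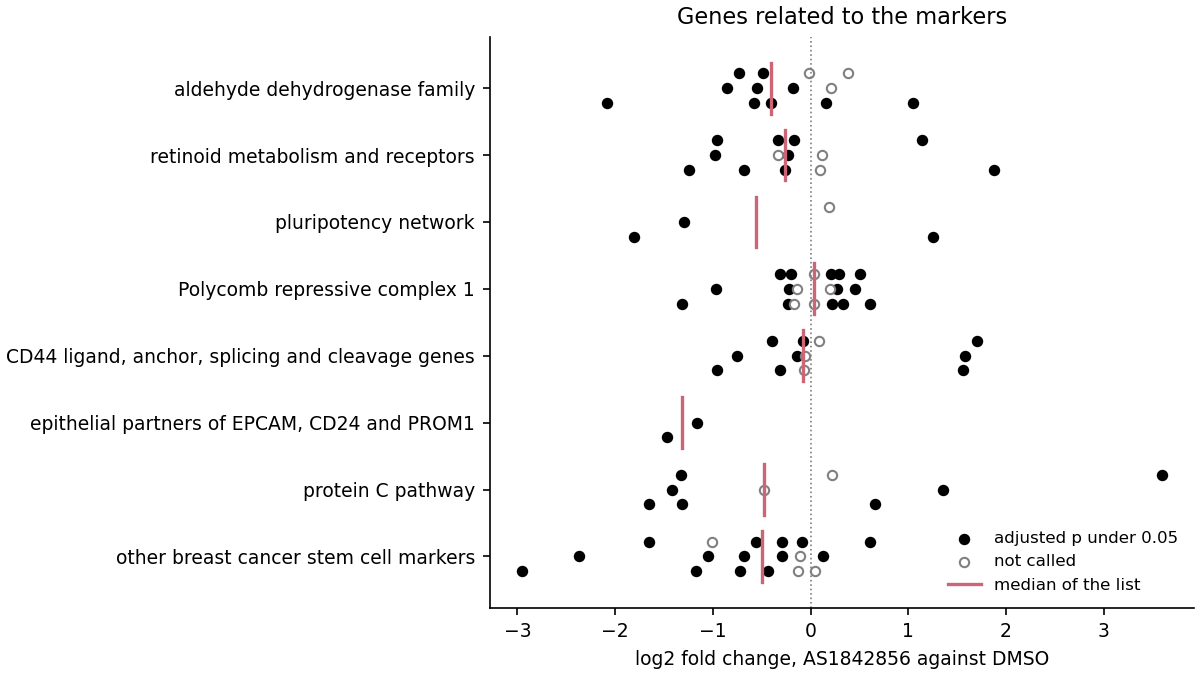
Log2 fold change, AS1842856 against DMSO, of each tested gene of the 8 related lists, filled where the adjusted p was under 0.05, with the median of each list as a vertical line. The medians ran from -1.32 for the 2 tested epithelial partners to 0.04 for Polycomb repressive complex 1, and F2RL1 (3.59) lay farthest above 0. Of the epithelial partners, CLDN7 passed the filter through its DMSO libraries only. Points are set at 3 heights within a list for legibility.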

How the data were processed

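RNA-Seq was measured in 3 DMSO and 3 AS1842856 libraries of BT549 cells, grouped by the treatment label, and the study calls the replicates biological. The authors deposited raw counts per gene and FPKM values. The paper names STAR, the submitters' processing notes list CASAVA, Bowtie 0.12.2 and GRCh38, and the counting tool, annotation and use of strand are not given in the sources used here. All 58735 identifiers matched GENCODE release 29, the source of symbols and positions. The deposited FPKM values listed 25015 genes and used GENCODE joined exon lengths, matched within 1.25% for the 6 tested markers.

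Counts were tested in R 4.3.3 with edgeR 4.0.16 (filterByExpr, TMM, glmQLFit with robust estimation, glmQLFTest, no block). P-values were adjusted by Benjamini-Hochberg over 14338 genes with a threshold of 0.05. The filter asked for 15 counts in total and, in 3 or more libraries, a level of 10 counts scaled to the median library size. A gene could thus pass through the libraries of 1 group. SE is the size of the log2 fold change over the square root of F. The tested genes held 99.9% of counts, TMM factors were 0.995 to 1.01 and the common biological coefficient of variation was 0.0374. The CD44 to CD24 ratio was compared by a two-sided exact permutation test. Whether reads carried molecular identifiers is not given in the sources used here. Intervals and limits from counts take each count as independent and cover counting error alone. Scripts were tested on simulated data. The value of 1 listed gene is not reported here.

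The marker genes and all lists were chosen with earlier results of these data known, so their counts are a description. Named genes were all 10 markers, up to 4 genes in each direction per list with a call and a log2 fold change of at least 1 in size, genes that overlap or copy a marker, and the 3 genes nearest in pattern to the marker with the highest FPKM (0.5 CPM added before the log). Alternatives were DESeq2 1.42.0, DESeq2 size factors in edgeR, library totals, no low-count filter, a minimum mean of 50 counts, the replicate letter as a block, limma 3.58.1 on log2(FPKM + 1) and log2(FPKM + 0.1) for a mean FPKM of at least 0.5 and on log2(FPKM + 1) for all genes, and each library left out.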

Additional observations from a re-analysis of the deposited data

How the results depend on the processing

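The calls of CD44, CD24, ALDH1A3 and PROCR and their directions held under the 9 alternatives with all libraries and with each of the 6 libraries left out: CD44 lay between -0.47 and -0.44 on the log2 scale, CD24 between 0.66 and 0.72, ALDH1A3 between -0.58 and -0.52 and PROCR between 0.76 and 0.95. The number of markers called was 4 throughout, except 5 with no filter on low counts, where EPCAM was added. BMI1 lay between 0.03 and 0.11 and was not called. POU5F1 turned in direction to 0.27 (adjusted p of 0.665 by edgeR) without DMSO replicate B, with a range of -0.64 to 0.27 over the libraries left out, and limma with a mean FPKM of at least 0.5 did not test it. The log2 difference of the CD44 to CD24 ratio lay between -1.17 and -1.12 with a library left out. With the replicate block, 7862 genes and 4 markers were called against 8029 and 4; libraries of the same letter did not deviate together (correlations of 0.026, -0.011 and -0.013), so the letters were not taken as pairs. Between 6453 and 8030 genes were called under the alternatives with all libraries, and 7427 to 7678 with a library left out. Of the lists, Polycomb repressive complex 1 went from 14 calls to 9 with limma on all genes, and the epithelial partners went from 2 to 5 with no filter, 4 with DESeq2 and 1 with the minimum of 50 counts or limma. Counts of a few reads limit EPCAM, PROM1 and POU5F1.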
